A study of Homo sapiens with 6 samples.

Results

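The genes of MHC class I antigen presentation described here were HLA-B, HLA-C, HLA-E, B2M, TAP1, TAP2, TAPBP, NLRC5 and PSMB9, chosen by name as 9 of the 58735 genes in the count table. Poly(A) RNA of cells labelled MG63, an osteosarcoma cell line, was sequenced 48 h after transfection with siRNA. The siFUBP1 group (n = 3) received siRNA against FUBP1, which encodes a single-stranded DNA and RNA binding protein, and the siMock group (n = 3) received the negative control. All 6 samples came from this 1 cell line and from transient transfection, and the sources used here do not state which FUBP1 siRNA was sequenced. The labels do not say that the 3 samples of a group were separate cultures, and the study's methods say only in general that experiments were repeated, so p-values measure only the spread between these samples, which may be technical.

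MHC class I molecules carry peptides from inside the cell to its surface, where CD8+ T cells and natural killer cells read them. Each molecule is a heavy chain (classical and highly polymorphic, as HLA-B and HLA-C are, or non-classical, as HLA-E is) paired with beta-2 microglobulin, the product of B2M. Peptides are cut by the proteasome, in which PSMB9 is a catalytic subunit of the interferon-induced form, pumped into the endoplasmic reticulum by the TAP1 and TAP2 transporter, and loaded with the help of tapasin, the product of TAPBP. NLRC5 is the transactivator that acts on class I promoters, together with the RFX, NF-Y and CREB/ATF factors bound there, and interferon induces most of the pathway through IRF1 and the STAT proteins.

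Total counts were between 16309900 and 17484313 per sample. FUBP1 itself had 3872, 4331 and 4282 counts in the siMock samples and 749, 752 and 926 in the siFUBP1 samples, so the remaining level was 18.4% of siMock (log2 fold change -2.44, SE 0.0895, adjusted p = 1.90e-17, edgeR's quasi-likelihood test). The profile was checked against markers of the labelled cell type. Of 8 mesenchymal and osteoblast lineage markers, COL1A2 had 0 counts in every sample, and SPARC, ALPL and THY1 had at most 5, while COL1A1, VIM and FN1 had between 769 and 3731. The epithelial keratins KRT7, KRT8, KRT17 and KRT18, a list added after the values were seen, had between 2950 and 34970 counts, and their summed level was 4098 to 4736 CPM (read counts scaled to a common library size) in siMock and 2306 to 2436 CPM in siFUBP1. The 2 mesenchymal markers past a 2-fold change were COL1A1, which fell (-1.31, adjusted p = 1.83e-13), and RUNX2, which rose from 6 to 8 counts to 39 to 97 counts (3.15, adjusted p = 4.53e-08). VIM rose and FN1 fell within 2-fold. The absent and keratin markers go against the osteosarcoma label, and the cells are called MG63 here only as labelled. The bearing of this marker profile on the class I genes was not tested. Fewer cells of a type and less RNA per cell cannot be told apart in such bulk RNA.

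The sequences that bear on these genes are of 2 kinds, promoter elements and the siRNA guides. Promoters of 7 of the 9 genes were read from RefSeq (GRCh38.p14, 250 bases before to 50 bases after the start, with a second start for TAP1). They were searched on both strands for 5 motifs: GAAA followed after any 2 bases by GAAA (an interferon regulatory factor element), GGGGA followed after any base by TCCC (a kappaB site), CCAAT (the NF-Y box), TGACG (the core of a cAMP response element, bound by CREB/ATF factors) and TAGCAAC (the core of the X1 box, bound by RFX). Only these exact letters were searched, and only within these promoter stretches. A gene without a match may still hold such an element spelled otherwise or farther away. Matches to the interferon letters are shown for the 4 genes that had them, B2M, TAP1, TAP2 and TAPBP. They stand in the 30-base windows below, with the matched letters in capitals and each sequence written 5′ to 3′ on the gene's own strand.
B2M, chr15:44711366-44711395, plus strand: actctaaGAAAAGGAAACTGAAAacgggaa
TAP1, chr6:32853816-32853845, minus strand: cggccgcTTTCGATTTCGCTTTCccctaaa
TAP2, chr6:32838778-32838807, minus strand: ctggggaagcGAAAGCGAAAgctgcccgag
TAPBP, chr6:33314079-33314108, minus strand: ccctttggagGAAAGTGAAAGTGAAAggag

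B2M, TAP1 and TAPBP each held a pair of overlapping matches, in TAP1 on the opposite strand and upstream of the first of its starts, whereas 3.57% of 35116 promoters of the same length held at least 1 match. The kappaB letters as searched were found in HLA-B, where both strands matched at overlapping positions, and in 0.424% of all promoters. Other spellings of a kappaB site were not searched, in these genes or in the rest. The HLA-C promoter had no match, and the place in it that aligns with the HLA-B site is shown in lower case for comparison.
HLA-B, chr6:31357336-31357365, minus strand: cgcagcgttGGGGATTCCCCactcccctga
HLA-C, chr6:31272245-31272274, minus strand: cgccgcgttggggattctccactcccctga

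The TGACG core lay at a similar distance from the start in HLA-B (base -106) and HLA-C (base -105), and nearer the start in B2M (base -75). It also occurred in TAP2 and PSMB9. The 3 windows are shown because ATF1 and CREB1, which bind this core, are among the genes described further on.
HLA-B, chr6:31357268-31357297, minus strand: ccaggatactcgTGACGcgtccccacttcc
HLA-C, chr6:31272180-31272209, minus strand: cctgaatactcaTGACGcgtccccaattcc
B2M, chr15:44711430-44711459, plus strand: cttggagacaggTGACGgtccctgcgggcc

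TGACG was found in 24.6% of all promoters and CCAAT in 34.6%, and CCAAT was present in HLA-B, HLA-C, B2M, TAP1 and PSMB9. The exact letters TAGCAAC were in none of the 7 genes' windows and in 2.85% of all promoters. The starts of TAP1 and PSMB9 are 488 bases apart and face away from each other. These matches describe letters in a window and not sites of binding.

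The guide strands of the 3 FUBP1 siRNAs designed in the study are shown because a guide can also lower other transcripts through its seed, bases 2 to 8, in capitals.
RNAi#1: uAAACUGAaugcgaacacctt
RNAi#2: uAAGAGGUuugucagcacctt
RNAi#3: uUUCUUCUaugaguugccgtt

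Complete matches to a seed were counted in the 3′ untranslated region of each gene. TAP2, with 3491 bases, held 1 match to RNAi#2 and 3 to RNAi#3. TAPBP, with 2066 bases, held 1 match to RNAi#2. The other 7 genes held none, against 20.5%, 13.1% and 21.8% of 19145 genes for RNAi#1, RNAi#2 and RNAi#3.

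Transcripts of the class I pathway were lower in siFUBP1 than in siMock for 8 of the 9 genes, and for none higher. HLA-B, HLA-C and TAPBP fell more than 2-fold. HLA-E, B2M, TAP2 and NLRC5 fell to between 66.3% and 70.1% of siMock, TAP1 fell to 88.0% at the edge of the threshold, and PSMB9, at 88.1%, did not pass it. Among all 16116 genes tested, 30.1% were called lower and 30.1% higher at an adjusted p below 0.05, and 9.13% were lower and 8.16% higher by more than 2-fold, against 3 and 0 of these 9. In 8 of the 9 genes the highest siFUBP1 value lay below the lowest siMock value, as in 31.7% of all genes tested. The 9 genes were chosen with earlier results of these data known, so these shares describe them and do not test them. The median log2 fold change of the 9 genes was -0.56, and that of all genes tested was 0.0020. The counts given below for lists of genes are to be read beside the shares of all genes tested.

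**Figure D1:**
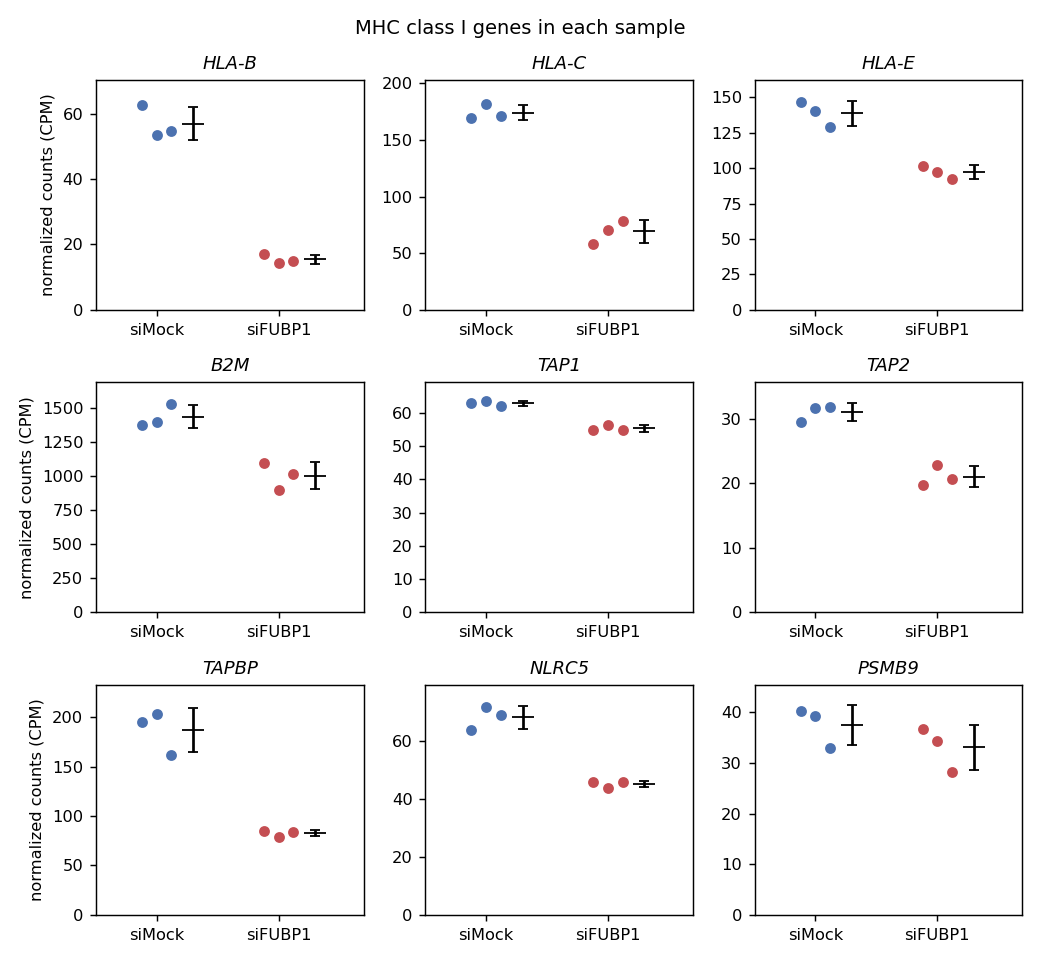
Normalized counts (CPM, vertical axes from 0) of the 9 class I genes in each sample of siMock (blue) and siFUBP1 (red), with the mean ± SD of 3 samples beside the points. The groups are apart in 8 panels and overlap in PSMB9, and relative to its siMock level the difference is largest in HLA-B (27.2% of siMock).

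Among the heavy chains, HLA-B (ENSG00000234745, chromosome 6, 31269491 to 31357188, minus strand, GRCh38) had 62.7, 53.3 and 54.7 CPM in siMock and 17.1, 14.5 and 14.9 CPM in siFUBP1. The lowest control was more than 3 times the highest knockdown sample. The mean fell from 56.9 ± 5.06 to 15.5 ± 1.42 CPM (SD, n = 3), which is 3.67-fold lower (log2 fold change -1.88, SE 0.101, adjusted p = 2.11e-14). It ranked 348 of the 16116 genes counted from the lowest fold change.

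HLA-C (ENSG00000204525, chromosome 6, 31268749 to 31272130, minus strand) had 170, 182 and 171 CPM in siMock and 58.6, 70.7 and 78.9 CPM in siFUBP1. The siFUBP1 samples varied more than the controls but remained far below them. HLA-C fell from 174 ± 6.84 to 69.4 ± 10.2 CPM (SD, n = 3), 2.51-fold lower (log2 fold change -1.33, SE 0.0899, adjusted p = 2.10e-12).

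HLA-E (ENSG00000204592, chromosome 6, 30489467 to 30494205, plus strand), the ligand of the NKG2A receptor on natural killer cells, had 147, 140 and 129 CPM in siMock and 102, 97.4 and 92.2 CPM in siFUBP1. The groups did not overlap, and the change was much smaller than in HLA-B or HLA-C. It fell to 70.1% of siMock (log2 fold change -0.51, SE 0.0782, adjusted p = 3.10e-06).

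Outside the 9 genes, 2 non-classical heavy chains were looked at. HLA-F, of low abundance, had 172, 164 and 139 counts in siMock and 51, 38 and 31 in siFUBP1. It fell by 2.06 on the log2 scale (SE 0.195, adjusted p = 1.11e-09). HLA-G had at most 1 count and was not tested.

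The heavy chain genes are close copies, and 17.8% of the 50-base windows of HLA-B, 5.70% of HLA-C and 4.87% of HLA-E occurred in another gene of the annotation. Most of the shared windows of HLA-B lay in AL671883.2, an overlapping gene on the opposite strand with 0 counts in every sample. Where reads could be divided between such copies, the values of single heavy chain genes are less certain. The counts of 17 heavy chain genes and pseudogenes, added to a single value after the data were seen, fell by 0.73 on the log2 scale (SE 0.0782, adjusted p = 9.52e-09), less than HLA-B and HLA-C and more than HLA-E.

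B2M (ENSG00000166710, chromosome 15, 44711487 to 44718877, plus strand) encodes the light chain shared by all these molecules. It had 1372, 1400.29 and 1532 CPM in siMock and 1094, 899 and 1017 CPM in siFUBP1, and the groups did not overlap. B2M fell to 69.9% of siMock (log2 fold change -0.52, SE 0.0874, adjusted p = 1.34e-05).

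The summed level of HLA-B, HLA-C and HLA-E per kilobase, divided by that of B2M, was 0.609, 0.595 and 0.513 in siMock and 0.351, 0.444 and 0.403 in siFUBP1. All siFUBP1 ratios lay below all siMock ratios. The mean ratio was 0.573 ± 0.0517 and 0.399 ± 0.0466 (SD, n = 3), a difference of -0.173 (exact permutation test, two-sided, p = 0.1). With 3 samples against 3, 0.1 is the smallest p this test allows.

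Within the peptide transporter, TAP2 (ENSG00000204267, chromosome 6, 32821833 to 32838780, minus strand) had 29.4, 31.7 and 31.8 CPM in siMock and 19.7, 22.8 and 20.7 CPM in siFUBP1. The groups were clearly apart. TAP2 fell to 67.9% of siMock (log2 fold change -0.56, SE 0.0987, adjusted p = 2.42e-05). It shares 2064 of its 6390 exonic bases with AL669918.1, a gene on the same strand with 0 counts in every sample.

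TAP1 (ENSG00000168394, chromosome 6, 32845209 to 32853978, minus strand), the other chain of the transporter, had 63.0, 63.6 and 62.1 CPM in siMock and 54.8, 56.5 and 54.8 CPM in siFUBP1. The samples of a group were almost alike and the groups did not overlap, although the gap was small. The log2 fold change was -0.18 (SE 0.0802, adjusted p = 0.0496), and the adjusted p was below 0.05 in only 4 of 15 alternative fits. With an offset for GC content and length the log2 fold change was -0.029 (adjusted p = 0.735), so the call for TAP1 depends on the fit.

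TAPBP (ENSG00000231925, chromosome 6, 33299694 to 33314387, minus strand), the chaperone that holds empty class I molecules at the transporter, had 195, 204 and 162 CPM in siMock and 84.4, 78.8 and 84.3 CPM in siFUBP1. The third siMock sample was the lowest control and still lay far above the knockdown samples. TAPBP fell from 187 ± 22.1 to 82.5 ± 3.19 CPM (SD, n = 3), 2.27-fold lower (log2 fold change -1.18, SE 0.0854, adjusted p = 6.96e-12).

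The other genes of peptide trimming and loading were a list of 8, of which 5 fell, 2 rose and 1 was not called, with a median log2 fold change of -0.51. ERAP1, the aminopeptidase that trims peptides in the endoplasmic reticulum, fell from 46.3 ± 2.33 to 22.6 ± 1.39 CPM (SD, n = 3; log2 fold change -1.04, adjusted p = 4.16e-10). UGGT1, the glucosyltransferase that returns unfolded glycoproteins to their chaperones, fell from 304 ± 18.5 to 149 ± 11.5 CPM (log2 fold change -1.03, adjusted p = 3.19e-11). The 2 genes that rose, named after their values were seen, were the general chaperone CANX (0.36, adjusted p = 9.77e-04) and the disulfide isomerase PDIA3 (0.31, adjusted p = 0.00163).

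PSMB9 (ENSG00000240065, chromosome 6, 32844136 to 32859585, plus strand) had 40.2, 39.3 and 33.0 CPM in siMock and 36.8, 34.2 and 28.1 CPM in siFUBP1. The groups overlapped, and the third sample was the lowest in each group. The log2 fold change was -0.18 (SE 0.104, adjusted p = 0.136). It was -0.32 with the offset for GC content and length (adjusted p = 0.00715) and -0.27 without the third siMock sample (adjusted p = 0.0325), 2 of the 3 among 15 alternatives with an adjusted p below 0.05.

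Of the 5 other genes of the immunoproteasome and its activator, 2 fell and 3 were not called. PSMB10, the catalytic subunit that replaces PSMB7, had 263, 302 and 178 counts in siMock and 86, 97 and 83 in siFUBP1. It fell by 1.55 on the log2 scale (SE 0.162, adjusted p = 6.57e-09). The activator subunits were PSME2, which fell slightly (-0.20, adjusted p = 0.0261, and below 0.05 in 10 of 15 alternatives), and PSME1 (-0.17, adjusted p = 0.0612). PSMB8, the third inducible catalytic subunit, had a log2 fold change of -0.066 (adjusted p = 0.524), and the assembly factor POMP had -0.0071 (adjusted p = 0.949).

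The constitutive catalytic subunits did not move in a common direction. PSMB6, which PSMB9 replaces, fell (-0.33, adjusted p = 0.00115), PSMB7 rose (0.41, adjusted p = 4.32e-05) and PSMB5 had -0.094 (adjusted p = 0.287). PSMB9 made up 19.3%, 18.8% and 17.9% of PSMB9 plus PSMB6 per kilobase in siMock and 22.3%, 21.4% and 17.1% in siFUBP1. The groups overlapped, with a difference of 1.63 percentage points (exact permutation test, two-sided, p = 0.4, where 0.1 is the smallest possible). Among the 11 other subunits of the 20S core, 3 rose, 1 fell and 7 were not called, with PSMB1 (0.55, adjusted p = 9.40e-07) and PSMA6 (-0.48, adjusted p = 0.00894) at the extremes of those called.

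**Figure D2:**
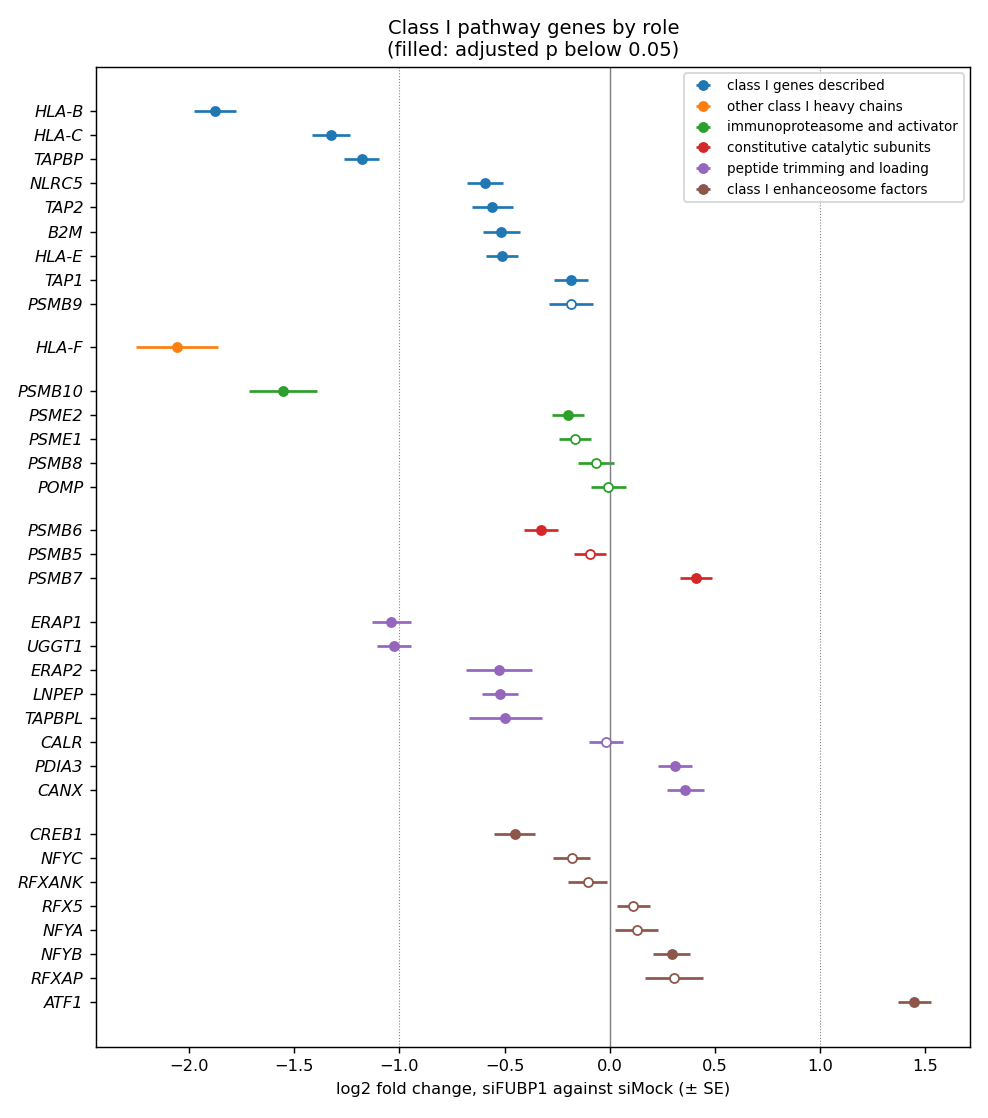
Log2 fold change of siFUBP1 against siMock (horizontal axis, ± SE) for the 9 class I genes and 5 lists of related genes (colours), with filled points for an adjusted p below 0.05 and dotted lines at 2-fold. The heavy chain genes and TAPBP lie left of 0, TAP1, PSMB9 and most proteasome subunits lie near 0, and ATF1 lies at 1.45.

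NLRC5 (ENSG00000140853, chromosome 16, 56989485 to 57083531, plus strand) had 64.0, 71.8 and 69.1 CPM in siMock and 46.0, 43.9 and 45.9 CPM in siFUBP1. The groups did not overlap. NLRC5 fell to 66.3% of siMock (log2 fold change -0.59, SE 0.0835, adjusted p = 9.24e-07). With the offset for GC content and length the fold change was smaller, at -0.29.

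Of the 8 factors that bind the class I promoter together with NLRC5, 2 rose, 1 fell and 5 were not called. ATF1, a CREB family factor, rose from 55.1 ± 2.18 to 150 ± 4.84 CPM (SD, n = 3; log2 fold change 1.45, adjusted p = 2.06e-14). CREB1, of the same family, fell (-0.45, adjusted p = 2.73e-04), and NFYB, a subunit of NF-Y, rose (0.29, adjusted p = 0.00636). CREB1 and NFYB were named after their values were seen. The RFX subunits RFX5, RFXAP and RFXANK had adjusted p-values of 0.235, 0.0585 and 0.326.

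Of the 16 genes that carry interferon signals to the class I genes, 13 were tested, of which 6 fell, 1 rose and 6 were not called. IRF1, the factor that binds the interferon element, had 468, 546 and 383 counts in siMock and 217, 225 and 190 in siFUBP1. It fell by 1.22 on the log2 scale (adjusted p = 1.75e-09). STAT2 fell from 118 ± 8.76 to 52.7 ± 1.44 CPM (SD, n = 3; adjusted p = 3.62e-12), and IFNAR2, a chain of the type I interferon receptor, fell from 4.34 ± 0.305 to 1.54 ± 0.353 CPM (SD, n = 3; -1.48, adjusted p = 9.88e-06).

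The interferon genes IFNG and IFNB1 had 0 counts in every sample, which allows up to 0.184 CPM in the shallowest library, a limit for counting error only. NFKB1, the gene of this list that rose, had a log2 fold change of 0.46 (adjusted p = 6.79e-05) and was named after its values were seen.

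Levels can be compared between genes only per length. In siMock, B2M had 236 ± 14.0 CPM per kilobase of exon (SD, n = 3), HLA-C 69.4 ± 2.73, HLA-E 46.6 ± 3.01, TAPBP 37.0 ± 4.37 and HLA-B 18.6 ± 1.66. TAP1 had 13.1 ± 0.163 CPM per kilobase, PSMB9 12.2 ± 1.28, NLRC5 5.51 ± 0.321 and TAP2 4.85 ± 0.214. The ranges of 1 SD overlapped between TAP1 and PSMB9 and between no other neighbours in this order. The length counts every exonic base, also the 2064 of 6390 that TAP2 shares with AL669918.1 and the 542 of 3051 that HLA-B shares with AL671883.2. How reads in shared bases were counted is not given, so the levels per length of TAP2 and HLA-B, and the order of TAP2 and NLRC5, are less certain in both groups.

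In siFUBP1, B2M remained the highest, at 165 ± 16.1 CPM per kilobase. HLA-E (32.6 ± 1.59) stood above HLA-C (27.7 ± 4.07), with overlapping ranges, and HLA-B (5.08 ± 0.465) stood below TAP1 (11.5 ± 0.209) and PSMB9 (10.8 ± 1.45), whose ranges overlapped. TAPBP had 16.3 ± 0.632 CPM per kilobase, NLRC5 3.65 ± 0.0965 and TAP2 3.29 ± 0.249. HLA-B thus moved from the fifth to the seventh place, and HLA-C from the second to the third. Reads of this line's own HLA alleles were counted on reference genes, so the places of the heavy chain genes are less certain in both groups.

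**Figure D3:**
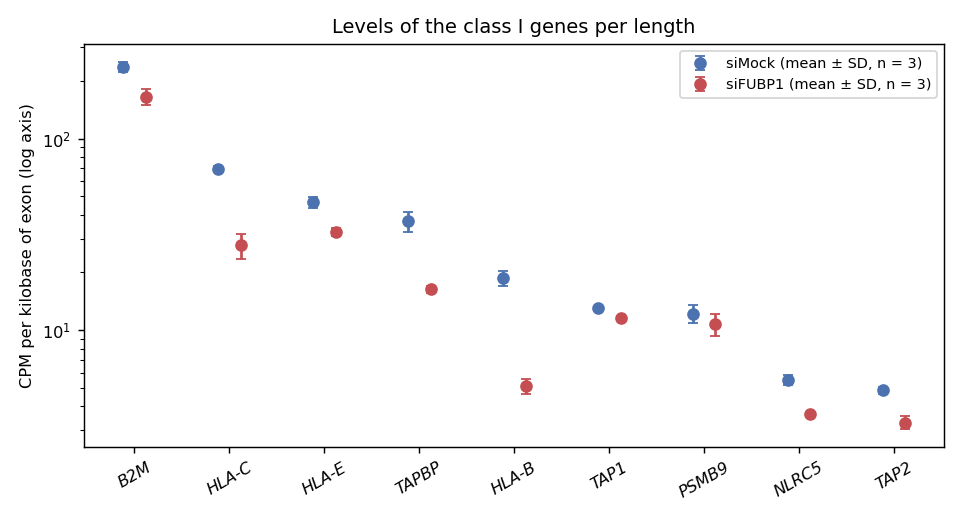
CPM per kilobase of exon (log axis, mean ± SD, n = 3) of the 9 class I genes in siMock (blue) and siFUBP1 (red), ordered by the siMock level. B2M is at the top in both groups, and HLA-B drops from 18.6 to 5.08, below TAP1 and PSMB9.

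Of the 9 genes, 7 lie in the MHC on chromosome 6, between the start of HLA-E and the end of TAPBP (30489467 to 33314387), a stretch with 103 tested genes. Of the 96 others in it, 28 fell (29.2%, against 30.1% of all genes tested), 30 rose and 38 were not called, with a median log2 fold change of -0.031. More than 2-fold changes were seen in 12 of those that fell and 7 of those that rose. Among all genes tested, 9.13% fell and 8.16% rose by more than 2-fold. TAP2, PSMB8, PSMB8-AS1, PSMB9 and TAP1 follow each other in the order of tested genes. TAP2 had -0.56, PSMB8 -0.066, PSMB9 -0.18 and TAP1 -0.18, and the antisense transcript PSMB8-AS1, with 10 to 33 counts, had -0.76 (adjusted p = 0.115). B2M and NLRC5, on chromosomes 15 and 16, had -0.52 and -0.59, beside -0.51 for HLA-E.

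**Figure D4:**
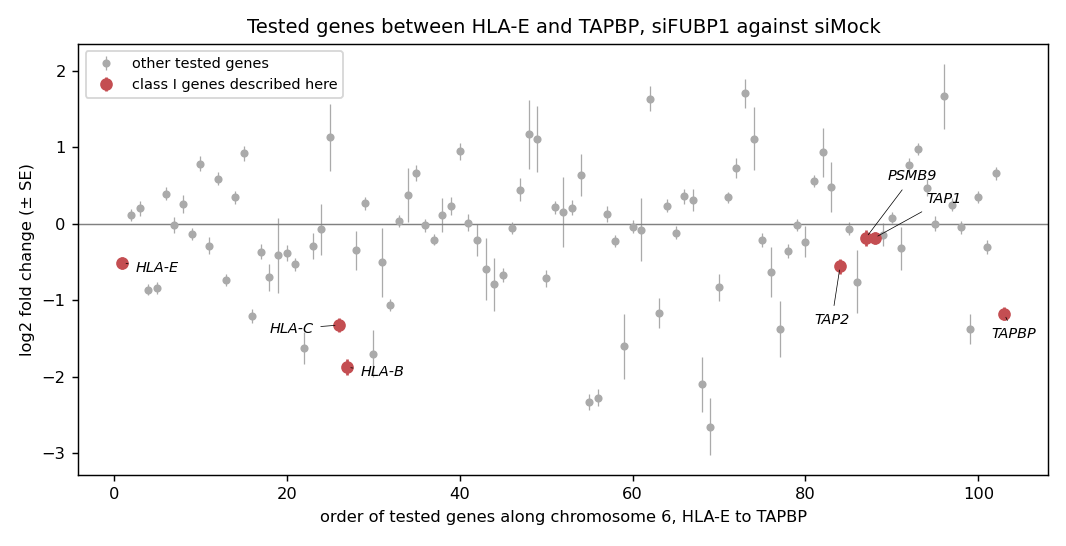
Log2 fold change (± SE) of the 103 tested genes from HLA-E to TAPBP in their order along chromosome 6 (horizontal axis, rank and not distance), with the 7 class I genes in red and the 96 others in grey. The grey points spread to both sides of 0, and HLA-B, HLA-C and TAPBP lie below -1.

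Genes of neighbouring pathways were described in the same fit. Of 4 class I-like genes, 3 were tested and 2 fell, MR1, which presents metabolites (-0.78, adjusted p = 8.21e-06), and FCGRT, the heavy chain of the neonatal Fc receptor, which also pairs with beta-2 microglobulin (-0.74, adjusted p = 2.62e-06). Of 12 class II genes, 6 had 0 counts in every sample and 8 had at most 5. CIITA, the class II counterpart of NLRC5, fell from 4.15 ± 0.947 to 2.17 ± 0.112 CPM (SD, n = 3; -0.93, adjusted p = 0.00143), and HLA-DMA and HLA-DOB, the other 2 tested, were not called.

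Leukocytes, which express class I genes strongly, were checked by 10 markers. PTPRC, the pan-leukocyte marker, had at most 2 counts, 4 markers had 0 in every sample and 6 had at most 5. Their summed level was 8.52 to 10.8 CPM in siMock and 12.4 to 13.3 CPM in siFUBP1, with ITGAX the only one called (0.83, adjusted p = 1.15e-04). The lists of the pathway and its neighbours, without the 9 genes and the marker lists, held 78 genes, of which 63 were tested. Of these, 22 fell, 11 rose and 30 were not called, against 30.1% lower and 30.1% higher among all genes tested. With the offset for GC content and length 30 fell and 10 rose, and with scaling by library size alone 19 fell and 14 rose.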

How the data were processed

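RNA of 6 MG63 samples, grouped by their titles, was compared as 3 siFUBP1 against 3 siMock. The authors deposited raw read counts per gene, FPKM values scaled by gene length and library, and a gene length that equals the exonic bases of the annotation. The submitters' processing notes name HISAT2 2.0.5, StringTie 1.3.3b, featureCounts 1.5.0-p3 and DESeq2 1.16.1. The library kit does not mark strand, and the handling of multiply mapped or overlapping reads is not given in the sources used here. Reads of this line's own HLA alleles were counted on reference genes. Of 58735 genes, 58724 match GENCODE 29 (GRCh38) coordinates. The 5 columns of the authors' own comparison (group means, fold change, p-values) were not used.

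Counts were tested with edgeR 4.0.16 in R 4.3.3 (filterByExpr, TMM, robust quasi-likelihood test, Benjamini-Hochberg adjustment over 16116 genes, called below 0.05, common dispersion 0.00684). CPM use TMM library sizes (factors 0.959 to 1.05). The test was tested on simulated data. Alternatives used limma 3.58.1 on log2(FPKM + 1), DESeq2 1.42.0, other scalings and filters, a GC and length offset, a replicate block and leaving out each sample. Chi-square values per gene between replicates of a group were 5.79 to 9.38, above sampling noise.

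The 9 genes and the lists were chosen with earlier results of these data known. Named genes were FUBP1, the 9 genes, other heavy chains, immunoproteasome and constitutive catalytic genes, and of each other list the genes called with an absolute log2 fold change above 1 or, where there were none, the 2 largest among those called. Others are said to be named after their values were seen. Some genes covered by this rule are not reported here.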

Additional observations from a re-analysis of the deposited data

How the results depend on the processing

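Of 135 values of the 9 genes under 15 alternative fits each, 121 kept direction and side of the threshold, 0 reversed, 11 lost the call (all TAP1) and 3 gained it (all PSMB9). The sum of 17 heavy chain genes and pseudogenes, added after the data were seen, had -0.73, against -1.88 for HLA-B, -1.33 for HLA-C and -0.51 for HLA-E. The number of the 9 genes called lower was 8, 3 with an absolute log2 fold change above 1 as well, 7 at an adjusted p below 0.01, and 7 to 8 when each sample was left out. The log2 fold change of TAP1 was between -0.20 and -0.029 over the alternatives (adjusted p 0.0325 to 0.741), and leaving out any of the 6 samples ended its call. PSMB9 lay between -0.32 and -0.078 (adjusted p 0.00109 to 0.560), gaining a call with the GC and length offset (0.00715), with that offset and the replicate block (0.00109) and without siMock replicate 3 (0.0325). Scaling by library size alone moved the median log2 fold change of all genes to 0.0986, from 0.0020 with TMM. The ratio of summed HLA-B, HLA-C and HLA-E to B2M differed by -0.203 to -0.149 when each sample was left out. The PSMB9 share differed by 0.604 to 3.21 percentage points in the same fits. Same-numbered samples deviated together with correlations of -0.00469, 0.0171 and 0.123, so the numbers were not taken as pairs. A fit with the replicate block called 5001 genes lower and 5013 higher, against 4851 and 4844, and 8 of the 9 genes lower.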

Other observations

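Ligands of the activating natural killer receptor NKG2D were measured as a list of 8 genes, of which 7 were tested, 2 rose, 1 fell and 4 were not called. ULBP1 had 40, 44 and 49 counts in siMock and 368, 511 and 330 in siFUBP1, and the groups were far apart. It rose from 2.73 ± 0.363 to 23.4 ± 5.46 CPM (SD, n = 3; log2 fold change 3.10, SE 0.175, adjusted p = 1.13e-13). MICB, a stress-induced ligand encoded in the MHC, fell from 71.8 ± 1.10 to 34.3 ± 0.914 CPM (log2 fold change -1.06, adjusted p = 3.23e-11). Its close relative MICA, named after its values were seen, rose slightly (0.27, adjusted p = 0.00653). The median log2 fold change of the 7 genes was -0.0016.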
